A study of Mus musculus with 208 samples.

Results

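The 10 genes described here encode the receptor chains through which cells receive interleukin-1 (Il1r1, Il1rap), interleukin-6 (Il6ra, Il6st), tumour necrosis factor (Tnfrsf1a, Tnfrsf1b), type I interferon (Ifnar1, Ifnar2) and interferon-gamma (Ifngr1, Ifngr2). They were taken by symbol from the count and CPM (counts scaled to library total) matrices of 4 brain regions, which list 46366 genes, and all 10 were found and had enough counts to be tested in every region. Polyadenylated RNA was sequenced from nuclei that had been sorted for NeuN, a nuclear antigen of neurons, out of tissue punches, so a level here is the nuclear transcript of the receptor gene and not its protein.

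All animals were wild-type C57BL/6NTac mice of both sexes. Pups of the morphine groups (MOR) were born to dams carrying a minipump that delivered morphine at 10 mg/kg/day, then received morphine at 10 mg/kg 2 times daily from postnatal day 1 to 14, while the saline groups (SAL) received saline by the same routes. As adults, mice of each group were injected with lipopolysaccharide (LPS), a bacterial cell wall component that triggers an innate immune response, or with saline, and tissue was taken 2 h later. The 4 conditions are written as early exposure and then adult injection. SAL-SAL, SAL-LPS, MOR-SAL and MOR-LPS had 10, 10, 12 and 16 libraries in the prefrontal cortex (PFC), 13, 14, 12 and 16 in the hippocampus, 13, 15, 8 and 18 in the striatum, and 11, 12, 14 and 14 in the hypothalamus. The 208 libraries came from 71 animals under 18 litter numbers. Litter here is the first number of the sample name, read as the study's sample sheet explains it; all but 1 of these numbers held animals of a single sex, and the study's methods, which list litters by condition, sum to more litters than there are such numbers, so a number may not mark 1 whole litter. Each fit below that leaves out a litter, or takes litter as a block, rests on this reading. No litter number held both exposures, so litter could not be a block where morphine-reared and saline-reared mice were compared directly. There, and for the interaction of exposure with LPS, litters were instead allowed to correlate in an alternative fit. No fit with litter as a block is given for the interaction. A library is named below by its litter number and animal.

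Total counts per library ranged from 3056648 to 21988203 in the PFC, from 227025 to 24071488 for the hippocampus, from 5954700 to 92945090 in the striatum and from 7673 to 35077048 in the hypothalamus. In all, 8 libraries held under 0.5 of their region's median total, 3 of them hypothalamic. In a library of median depth 3 counts, taken as the floor, came to 0.277 to 0.541 CPM. Counts on the Y chromosome went against the labelled sex in 9 libraries. The sort could be checked only in part: Rbfox3, which encodes NeuN, had a median of 121.8 normalized CPM in the hypothalamus against 1302 to 2270 in the other regions, and 1480 of 12491 genes with a hypothalamic median of at least 5 CPM had no count in any PFC, hippocampal or striatal library (Tubb3, Nefl and the microglial gene P2ry12 among them). The hypothalamic matrix therefore stands apart from the other 3, which touches each comparison of a level with the hypothalamus below. Levels are given as normalized CPM, that is CPM scaled by the trimmed mean of M values (TMM) over all libraries. With bulk RNA, a lower level from fewer cells of a type cannot be told apart from less RNA per cell.

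As background, each of these receptors is a pair of chains or a single chain that signals on its own. Il1r1 binds interleukin-1 and needs Il1rap to signal through MyD88 and NF-kB. Il6ra binds interleukin-6 and passes the signal through Il6st (gp130), which is shared by the whole interleukin-6 family and activates STAT3. Tnfrsf1a (TNFR1) and Tnfrsf1b (TNFR2) bind the same ligand. Ifnar1 with Ifnar2, and Ifngr1 with Ifngr2, signal through JAK kinases. In the brain, neurons, glia and endothelium are all known to carry some of these chains.

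On chromosome 16 of the mouse genome (build mm10), 3 of the 10 genes lie close together, Ifnar2 at chr16:91372783-91405589, Ifnar1 at chr16:91485238-91507441 and Ifngr2 at chr16:91547072-91565623, all on the plus strand and, with Il10rb, within 192.841 kb. Il1rap lies apart on the same chromosome at chr16:26581704-26730117 on the plus strand. The others lie at chr1:40225080-40317257 (Il1r1, plus strand), chr3:89864059-89913196 (Il6ra, minus strand), chr13:112464070-112510086 (Il6st, plus strand), chr6:125349362-125362484 (Tnfrsf1a, plus strand), chr4:145213463-145246870 (Tnfrsf1b, minus strand) and chr10:19591949-19610229 (Ifngr1, plus strand). Whether the counting used strand is not given in the sources used here, so reads of an antisense neighbour may be counted in or left out: Gm20319 covers 4.86% of the Il1rap exon bases and Gm42809 covers 2.80% of those of Il6ra, both on the opposite strand. Gm21970 covers 9.46% of the Ifnar2 exon bases on the same strand.

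The promoters of 4 genes are shown because the results below turn on these genes: Il1rap and Il6ra in the hypothalamus, Tnfrsf1a and Ifngr2 after LPS. Each is the 250 bases before the RefSeq transcript start (assembly GRCm38.p6, the mm10 build), written 5′ to 3′ on the strand of the gene, and capitals mark a match on either strand to the motif GAS (TTCNNNGAA), the interferon-stimulated response element ISRE (TTTC, any 2 bases, TTTC) or an NF-kB site (GGG, any 2 bases, TTTCC). Il1rap lies at chr16:26581455-26581704 (plus strand), Il6ra at chr3:89913197-89913446 (minus strand), Tnfrsf1a at chr6:125349473-125349722 (plus strand) and Ifngr2 at chr16:91546809-91547058 (plus strand).
Il1rap: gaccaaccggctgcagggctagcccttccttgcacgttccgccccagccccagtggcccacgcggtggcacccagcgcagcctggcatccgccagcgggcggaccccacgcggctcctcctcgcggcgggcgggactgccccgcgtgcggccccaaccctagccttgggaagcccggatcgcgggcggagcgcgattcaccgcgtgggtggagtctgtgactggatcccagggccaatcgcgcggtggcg
Il6ra: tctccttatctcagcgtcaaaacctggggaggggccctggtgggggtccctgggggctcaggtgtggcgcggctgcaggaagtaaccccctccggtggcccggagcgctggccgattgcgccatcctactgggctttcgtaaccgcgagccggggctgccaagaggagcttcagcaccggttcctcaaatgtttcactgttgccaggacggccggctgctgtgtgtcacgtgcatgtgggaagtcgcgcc
Tnfrsf1a: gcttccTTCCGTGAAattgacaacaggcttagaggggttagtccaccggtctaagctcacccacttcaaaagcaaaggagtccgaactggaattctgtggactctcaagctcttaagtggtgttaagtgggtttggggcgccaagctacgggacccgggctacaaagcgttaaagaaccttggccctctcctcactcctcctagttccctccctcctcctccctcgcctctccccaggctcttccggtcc
Ifngr2: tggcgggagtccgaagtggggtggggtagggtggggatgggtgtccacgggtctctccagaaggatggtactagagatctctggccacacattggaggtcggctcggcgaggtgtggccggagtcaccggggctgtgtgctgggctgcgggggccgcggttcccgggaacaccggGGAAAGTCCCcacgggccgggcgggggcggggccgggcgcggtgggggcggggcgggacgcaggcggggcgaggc
The Tnfrsf1a window held 1 GAS match and the Ifngr2 window 1 NF-kB match, while the Il1rap and Il6ra windows held none of the 3 motifs. Of the other members, Ifnar2 and Tnfrsf1b held a GAS match and Tnfrsf1b also an ISRE match. Among 32851 promoter windows of the same length, 7.02% held GAS, 2.98% ISRE and 1.41% NF-kB letters. A match describes these letters only.

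Within a region the chains of a receptor were not present at like levels. Per kb of exon, Il1rap, the shared accessory chain, had the highest mean level of the 10 genes in SAL-SAL libraries of every region, at 5.86 ± 4.12 normalized CPM per kb in the PFC (SD, n = 10), 28.4 ± 13.7 in the hippocampus (n = 13), 11.1 ± 7.79 in the striatum (n = 13) and 10.1 ± 9.71 in the hypothalamus (n = 11). Ifnar1 came next in the PFC, striatum and hypothalamus, with 5.13 ± 2.22, 5.42 ± 0.664 and 8.95 ± 2.96 normalized CPM per kb, within 1 SD of Il1rap in each of these regions. The order of these 2 genes was not fixed in the PFC and hypothalamus: over the libraries of all conditions Ifnar1 had the higher mean there, 6.05 against 5.74 in the PFC and 8.78 against 7.04 in the hypothalamus, and in hypothalamic SAL-SAL libraries it had the higher median, 9.78 against 7.17, beside 1 Il1rap value of 36.9 in library 10-1. In the hippocampus Ifngr2, at 6.91 ± 2.01, and Il1r1, at 6.25 ± 4.23, followed Il1rap and overlapped with Ifnar1 at 5.21 ± 1.62. The TNF receptors were at the low end, Tnfrsf1a at 0.0285 to 0.444 and Tnfrsf1b at 0.184 to 0.873 normalized CPM per kb. In the hypothalamus Il6ra was lowest, at 0.300 ± 0.290, with Tnfrsf1a at 0.444 ± 0.841 not apart from it.

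**Figure D1:**
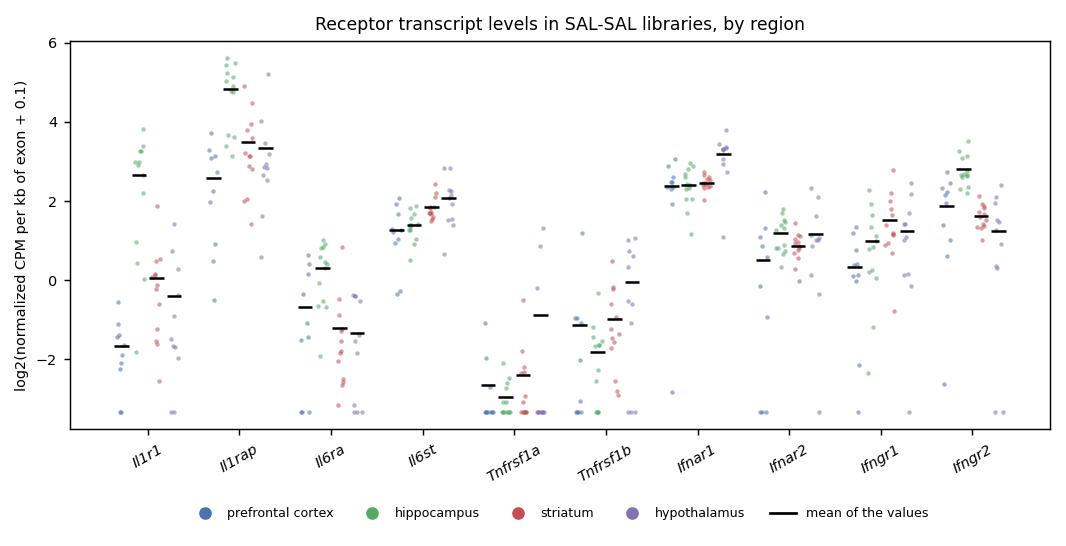
Level of each receptor gene in SAL-SAL libraries, as log2(normalized CPM per kb of exon + 0.1), with 1 point per library coloured by region and a bar at the log2 of the mean. Il1rap has the highest mean in each region of this condition, close to Ifnar1 in the PFC and hypothalamus, Il1r1 is high in the hippocampus alone among the 4 regions, and many Tnfrsf1a and Tnfrsf1b values sit at the bottom of the axis, where no read was counted.

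Counted library by library over all conditions, without low-depth libraries, the signalling or accessory chain exceeded the ligand-binding chain in nearly all of them. Per kb, Il1rap was above Il1r1 in 44 of 45 PFC, 53 of 53 hippocampal, 54 of 54 striatal and 48 of 48 hypothalamic libraries, and Il6st was above Il6ra in 44 of 45, 46 of 53, 54 of 54 and 47 of 48. The ratio of the 2 interleukin-1 chains was smallest in the hippocampus, where the means differed 4.40-fold, and largest in the striatum, at 17.2-fold. Ifnar1 exceeded Ifnar2 in 43 of 45, 52 of 53, 54 of 54 and 48 of 48 libraries, by 2.46-fold to 4.00-fold on the means. The interferon-gamma chains differed by region: Ifngr2 exceeded Ifngr1 in 41 of 45 PFC and 48 of 53 hippocampal libraries, but in only 31 of 54 striatal and 28 of 48 hypothalamic ones, where the ratio of means was 1.01 and 1.15.

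The interleukin-1 receptor genes were highest in the hippocampus. Over all conditions Il1r1 averaged 38.4 ± 21.2 normalized CPM in hippocampal libraries (SD, n = 55), against 4.42 ± 9.50 in the PFC, 4.73 ± 3.62 in the striatum and 3.22 ± 5.19 in the hypothalamus. In the SAL-SAL libraries, hippocampal Il1r1 ranged from 1.18 to 88.4 with a median of 46.9, while PFC values ranged from 0 to 3.74 with a median of 1.25, and 1 hippocampal library (9-0, the lowest) lay within the PFC range. Il1rap in SAL-SAL ranged from 99.4 to 550.0 among hippocampal libraries (median 340.6), from 6.97 to 149.5 in the PFC (median 63.8), from 29.4 to 341.8 in the striatum (median 98.3) and from 16.0 to 419.6 in the hypothalamus (median 81.5). Every hippocampal library therefore lay above the median of each other region, with overlap at the extremes.

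Regional markers set the PFC and striatal libraries apart poorly. The striatal genes Drd1, Drd2 and Adora2a, which encode dopamine and adenosine receptors, had medians of 36.96, 179 and 45.3 normalized CPM in the PFC and of 53.1, 226 and 52.9 in the striatum, against 3.17, 5.67 and 0.236 in the hippocampus. Ppp1r1b, a signalling protein of striatal neurons, had a higher median in the PFC (74.6) than in the striatum (45.5). The sum of 4 cortex markers had medians of 255, 196 and 199 normalized CPM in PFC, hippocampus and striatum, and the thalamus sum was highest in the striatum (median 3935, against 1899 in the PFC). The part of the punch's makeup in the regional differences below was not tested.

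Regional differences were tested in SAL-SAL libraries with edgeR's quasi-likelihood test, and a gene is called at a Benjamini-Hochberg adjusted p below 0.05 over all genes tested. Between PFC and hippocampus 2 of the 10 members were called (9.99% of all genes were), Il1r1 with a log2 difference of -4.83 ± 0.60 (SE, adjusted p = 5.59e-06) and Il1rap with -2.32 ± 0.40 (adjusted p = 2.69e-04). Between hippocampus and striatum 3 were called (7.59% of all genes), all higher in the hippocampus: Il1r1 by 2.74 ± 0.53 (adjusted p = 9.50e-04), Il1rap by 1.35 ± 0.37 (adjusted p = 0.0185) and Ifngr2 by 1.22 ± 0.35 (adjusted p = 0.0237). Hippocampal Ifngr2 ranged from 17.0 to 42.6 normalized CPM and striatal Ifngr2 from 7.26 to 16.0, so these groups did not overlap, but limma on log2(CPM + 0.1) or log2(CPM + 1) did not call this difference (adjusted p = 0.318 and 0.055). Between PFC and striatum 1 was called (9.31% of all genes), Il1r1 at -2.08 ± 0.61 (adjusted p = 0.0289), a difference that had the other sign in MOR-SAL libraries (0.27). In SAL-LPS libraries it was 1.10 with PFC library 1-4, which stood at 65.6 normalized CPM beside 0 to 6.68 in the other 9, and -0.37 without it (adjusted p = 0.868). With the animal as replicate block Il1r1 and Il1rap stayed called between PFC and hippocampus (adjusted p = 1.18e-05 and 8.37e-04) and all 3 between hippocampus and striatum (0.00163, 0.0109 and 0.0403), while Il1r1 between PFC and striatum was no longer called (-2.02, adjusted p = 0.0653), nor was it in limma (adjusted p = 0.0642 and 0.0992).

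Comparisons with the hypothalamus stood on a background in which over 0.5 of all genes passed, and the median of all genes was itself shifted. The PFC differed from it in 4 members (54.1% of all genes), the hippocampus in 8 (52.8%) and the striatum in 2 (51.5%), and the median log2 difference over all genes was -0.39, -0.34 and -0.25. Read against that, the members were called no more often than genes at large in the PFC and striatum. Ifnar1 and Tnfrsf1a were called against all 3 regions in SAL-SAL libraries, Tnfrsf1a only without the animal as a block. For Ifnar1, hypothalamic SAL-SAL libraries averaged 53.2 ± 17.6 normalized CPM against 30.5 ± 13.2 in the PFC, 31.0 ± 9.60 in the hippocampus and 32.2 ± 3.94 in the striatum, with log2 differences from the hypothalamus of -0.69, -0.69 and -0.65 (adjusted p = 0.0486, 0.0332 and 0.0459). The difference from the PFC was called in SAL-LPS libraries (-0.64, adjusted p = 0.00797). It was smaller and not called in MOR-SAL (-0.28, adjusted p = 0.0945) and MOR-LPS libraries (-0.33, adjusted p = 0.0997). Those from the hippocampus and striatum were called in MOR-SAL (adjusted p = 7.07e-05 and 8.68e-05), SAL-LPS (0.00724 and 0.00364) and MOR-LPS libraries (0.0497 and 9.37e-04). In the hippocampus, Il1r1 (3.30), Il6ra (1.94), Ifngr2 (1.70) and Il1rap (1.64) were called higher than in the hypothalamus, against the direction of the median gene, and Tnfrsf1a (-3.77), Tnfrsf1b (-2.56), Ifnar1 (-0.69) and Il6st (-0.61) lower. The Tnfrsf1a difference had the other sign in MOR-SAL libraries (0.54) and was near 0 in SAL-LPS libraries (0.01). In hypothalamic SAL-SAL libraries Tnfrsf1a was at 0 in 8 of 11. The others were the low-depth library 1-1 (9 counts) and libraries 4-1 and 9-4, which had the highest microglia sums (92.4 and 94.4) and oligodendrocyte sums (5330 and 3938) of the group, and without low-depth libraries the difference from the hippocampus was -2.19 (adjusted p = 0.122). With the animal as replicate block Tnfrsf1a was called against none of the regions (adjusted p = 0.306 for the PFC, 0.438 for the hippocampus and 0.364 for the striatum), and Ifnar1 stayed called against the hippocampus (-0.78, adjusted p = 0.0435) and striatum (-0.78, adjusted p = 0.0451) but not the PFC (-0.83, adjusted p = 0.0548). In limma on log2(CPM + 1) Ifnar1 was called against the PFC (adjusted p = 0.00176) and hippocampus (0.0338) but not the striatum (0.05003). In limma on log2(CPM + 0.1) it was the Ifnar1 difference from the PFC that was called (adjusted p = 0.00511), and those from the hippocampus (0.0994) and striatum (0.128) were not. In that fit the hippocampus also kept Il1r1, Il1rap and Ifngr2 and lost Il6ra (2.06, adjusted p = 0.0537), Il6st (-0.51, adjusted p = 0.112) and Tnfrsf1b (-2.25, adjusted p = 0.121), and the PFC kept Il6st (-0.86, adjusted p = 0.011) and lost Il1r1 (-1.39, adjusted p = 0.0857). That Il1r1 difference was of the other sign in MOR-SAL libraries (1.397, adjusted p = 0.0082) and in SAL-LPS libraries (2.82, adjusted p = 0.00124, and 1.30 with an adjusted p of 0.0796 without PFC library 1-4).

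LPS moved few of the receptor genes in saline-reared mice. In the hippocampus 1 of 10 was called (2.55% of all genes), in the PFC none (0% of all genes), in the striatum none (0.0128%) and in the hypothalamus none (0.246%). The gene called was Tnfrsf1a, the main receptor for soluble TNF. It was at 0 in 7 of 13 hippocampal SAL-SAL libraries, whose values reached only 0.348 normalized CPM, and it ranged from 0 to 2.87 in SAL-LPS libraries with 7 of 14 above the whole SAL-SAL range. The means were 0.0739 ± 0.110 (SD, n = 13) and 0.874 ± 1.01 (n = 14), a fitted log2 difference of 3.49 ± 1.03 (SE, adjusted p = 0.0465). These are few reads, with a median of 0 counts per library before and 5.5 after LPS, and the call held in 1 of the 8 fits that left out a litter (without litter 2), with an adjusted p of 0.0514 to 0.142 in the others, the largest without litter 3. With litter as a block it was 3.93 (adjusted p = 0.188).

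In morphine-reared mice the edgeR fit called 3 members higher after LPS, in 2 regions. With litter as a block 2 stayed called, both in the hypothalamus, and with the astrocyte sum as a covariate none did. The hypothalamus had 2 of 10 called (6.27% of all genes), the striatum 1 (1.39%), the hippocampus none (0.467%) and the PFC none (0.0184%). Over all 10 members the median log2 difference was 0.43 in the hypothalamus, 0.38 in the striatum, 0.09 in the hippocampus and 0.59 in the PFC, beside 0.003, 0.11, 0.02 and 0.06 over all genes tested.

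**Figure D2:**
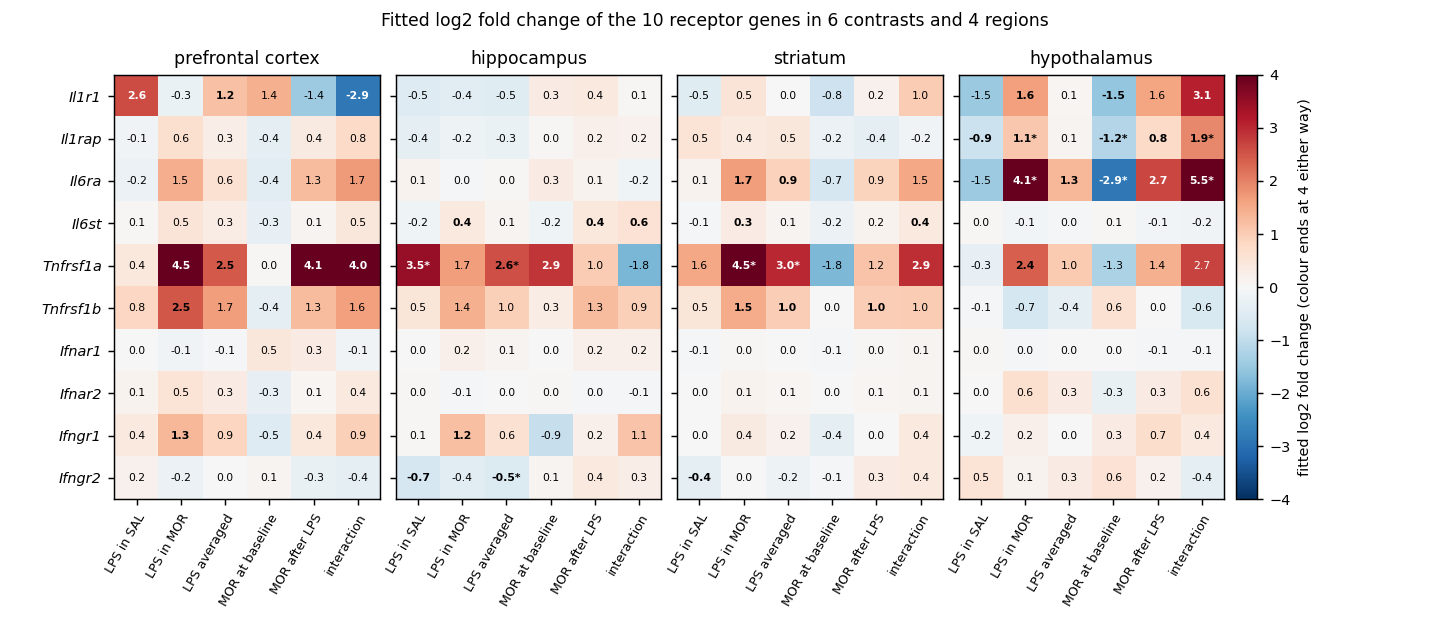
Fitted log2 fold change of the 10 receptor genes (rows) in 6 contrasts (columns) for each region, with colour running from blue (lower) to red (higher) and ending at 4 on either side. Bold numbers have an unadjusted p under 0.05 and an asterisk marks an adjusted p under 0.05: Il1rap and Il6ra in the hypothalamus, Tnfrsf1a in hippocampus and striatum, and Ifngr2 in the hippocampus.

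Il6ra, the interleukin-6 binding chain, was the member that differed most in the hypothalamus. The 14 MOR-SAL libraries ranged from 0 to 0.833 normalized CPM with a median of 0.174, the 14 MOR-LPS libraries from 0 to 26.3 with a median of 3.99. Of the MOR-LPS libraries, 12 lay above every MOR-SAL library, and the other two, 0 in 18-1 and 0.467 in 15-1, lay within their range. The fitted log2 difference was 4.09 ± 0.74 (SE, adjusted p = 0.00118), with 13 of 14 MOR-LPS libraries above the MOR-SAL median. Median counts per library were 1 in MOR-SAL and 30 in MOR-LPS. In saline-reared mice the values ran the other way without a call: 0 to 5.76 with a median of 2.13 in SAL-SAL and 0 to 3.22 with a median of 0.656 in SAL-LPS.

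Before any challenge, hypothalamic Il6ra and Il1rap were called lower in morphine-reared mice by the edgeR fit, which takes libraries of a litter as independent. In limma-voom with litters correlated neither was called (Il6ra -2.59, adjusted p = 0.259, and Il1rap -0.93, adjusted p = 0.201), nor with library size as the only scaling (adjusted p = 0.055 and 0.0552), nor with the summed level of astrocyte markers as a covariate (-1.37, adjusted p = 0.459, and -0.81, adjusted p = 0.118). The 2 called members stood beside 1.44% of all genes in the hypothalamus, and no member was called for this contrast in the PFC, hippocampus or striatum, where 0% of all genes were. All 14 MOR-SAL libraries fell below the SAL-SAL median of 2.13 for Il6ra, 7 of 11 SAL-SAL libraries lay above the highest MOR-SAL library, and the log2 difference was -2.86 ± 0.80 (SE, adjusted p = 0.0441). Leaving out any single litter kept that difference between -3.17 and -2.71, but the call held in 5 of 17 such fits, those without litter 1, 3, 4, 8 or 17, with an adjusted p of 0.0555 to 0.104 in the others, the largest without litter 10.

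Il1rap, the interleukin-1 accessory chain, had more reads behind it, with a median of 254.5 to 627.5 counts per hypothalamic library in the 4 conditions. MOR-SAL libraries ranged from 31.8 to 78.7 normalized CPM (median 44.6) and MOR-LPS libraries from 39.8 to 268.1 (median 79.1), with 7 of 14 MOR-LPS libraries above the whole MOR-SAL range. The means were 48.9 ± 14.3 and 99.1 ± 59.0 (SD, n = 14 each), a log2 difference of 1.07 ± 0.26 (SE, adjusted p = 0.00927), and the call held in all 10 fits that left out a morphine-reared litter and with litter as a block (0.96, adjusted p = 0.0141), but not in limma-voom with litters correlated (0.86, adjusted p = 0.0962). The same 2 fits gave 3.86 (adjusted p = 0.00619) and 3.44 (adjusted p = 0.0214) for Il6ra. SAL-SAL libraries ranged from 16.0 to 419.6 (median 81.5) and SAL-LPS libraries from 19.3 to 117.5 (median 57.2). The morphine effect at baseline was -1.17 ± 0.27 (adjusted p = 0.0172), with all 14 MOR-SAL libraries below the SAL-SAL median. Litter 10 decides that value: its 2 SAL-SAL libraries held the highest and the next highest Il1rap level of the group, 419.6 and 182, and without the litter the difference was -0.58 (adjusted p = 0.281). Without litter 15 it was -1.12 (adjusted p = 0.056).

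The response to LPS was called different between exposures for both genes in the edgeR fit. In the interaction test, which asks whether the LPS response of morphine-reared mice equals that of saline-reared mice, 2 of 10 members were called in the hypothalamus (3.8% of all genes), Il6ra at 5.54 ± 1.10 and Il1rap at 1.93 ± 0.39 on the log2 scale (SE, adjusted p = 0.00534 for each). Both remained called in all 17 fits that left out a litter, where Il6ra ranged from 5.26 to 5.84 and Il1rap from 1.28 (without litter 10, adjusted p = 0.0491) to 2.10. In limma-voom with litters correlated neither was called (Il6ra 4.86, adjusted p = 0.1, and Il1rap 1.68, adjusted p = 0.0827), nor in limma on log2 CPM or among males alone (Il6ra 6.54, adjusted p = 0.213, and Il1rap 1.84, adjusted p = 0.225). Part of each interaction is the SAL-SAL level, since the contrast shares its groups with the 3 differences above. No member was called for interaction in the PFC (1.78% of all genes), hippocampus (2.35%) or striatum (0.00854%). Il1r1, the partner chain of Il1rap, also had its higher hypothalamic means in SAL-SAL and MOR-LPS, with 4.16 ± 5.10 normalized CPM in SAL-SAL (SD, n = 11), 1.37 ± 1.58 in SAL-LPS (n = 12), 1.68 ± 1.84 in MOR-SAL (n = 14) and 5.59 ± 8.10 in MOR-LPS (n = 14), but its interaction of 3.11 ± 1.06 was not called (adjusted p = 0.0857). Il6st, the partner of Il6ra, averaged 42.6 to 47.6 normalized CPM in the 4 hypothalamic conditions and passed no test there.

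**Figure D3:**
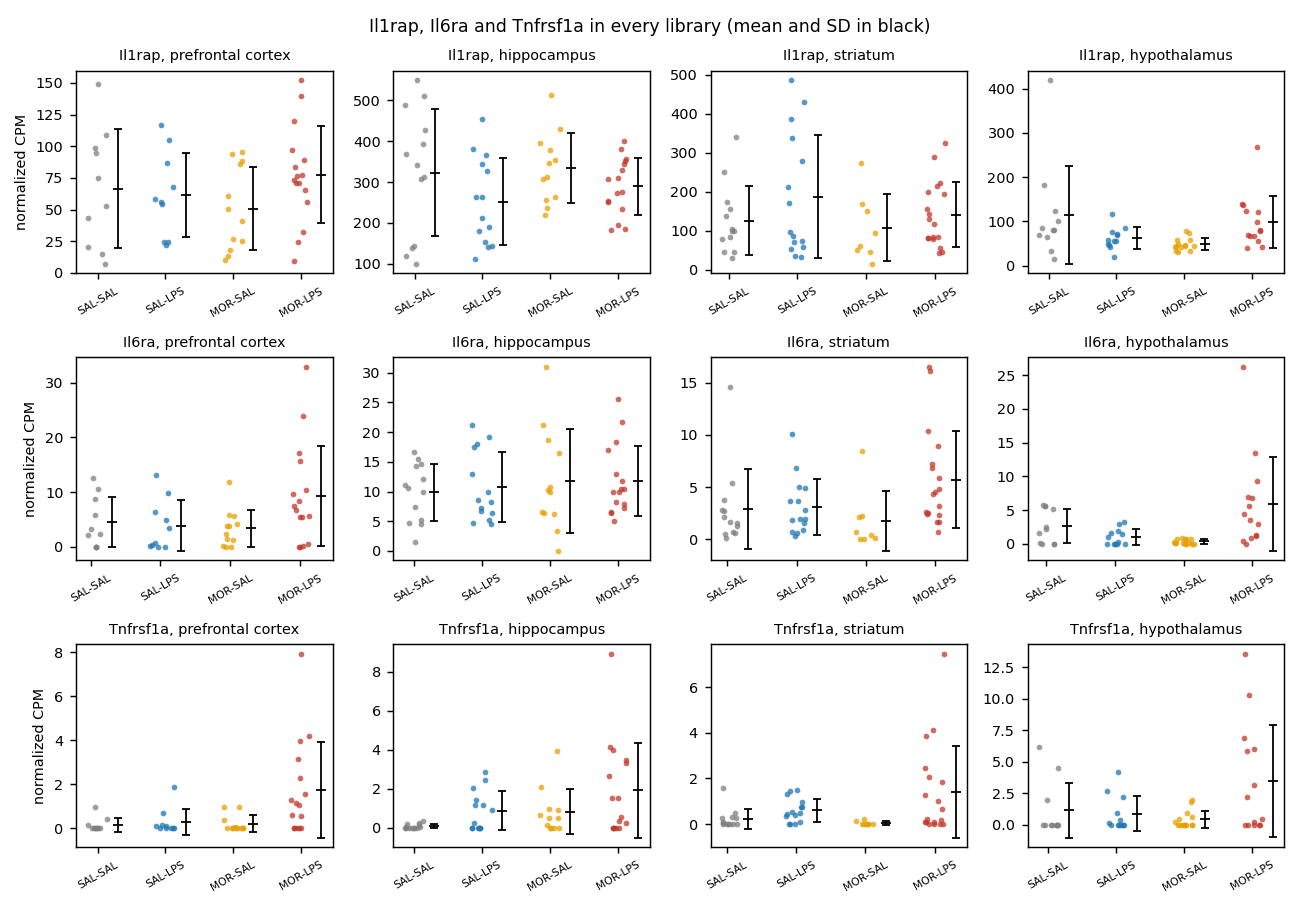
Normalized CPM of Il1rap, Il6ra and Tnfrsf1a (rows) in each region (columns), with 1 point per library by condition and the mean with 1 SD in black. Hypothalamic Il6ra is at or under 0.833 in all MOR-SAL libraries and reaches 26.3 in MOR-LPS, and Tnfrsf1a is at 0 in many libraries of each condition.

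Markers of other cells and of neighbouring tissue moved with these hypothalamic values, and their part in the results was not tested apart from the covariate fits given here. In MOR-LPS libraries the summed level of 6 astrocyte markers ranged from 114 to 1141 normalized CPM, against 76.5 to 179 in MOR-SAL libraries, and 5 of the 6 were called higher after LPS, as were 5 of 5 oligodendrocyte and 4 of 8 microglial markers. Without low-depth libraries the astrocyte sum ranged from 85.2 to 667 in SAL-SAL and from 83.6 to 500 in SAL-LPS. With the astrocyte sum as a covariate the LPS difference in morphine-reared mice was 0.36 for Il1rap (adjusted p = 0.738) and 1.82 for Il6ra (adjusted p = 0.382), and neither interaction was called. With microglial and endothelial sums as covariates they were 1.19 (adjusted p = 0.0142) and 3.51 (adjusted p = 0.0144).

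Regional markers moved with Il1rap too. The summed level of 4 thalamus markers ranged from 71.5 to 2809 normalized CPM in hypothalamic SAL-SAL libraries and from 72.03 to 707 in MOR-SAL libraries, and the highest sums, 2809 and 1847, belonged to the same pair of litter 10 libraries that led in Il1rap. With the thalamus sum as a covariate the Il1rap difference between MOR-SAL and SAL-SAL was -0.30 (adjusted p = 0.704) and the interaction 1.03 (adjusted p = 0.0761), while the LPS difference in morphine-reared mice was 1.01 (adjusted p = 0.00171). Il6ra gave -2.64 (adjusted p = 0.138), 5.30 (adjusted p = 0.00658) and 4.05 (adjusted p = 9.42e-04) in the same fits. Among MOR-LPS libraries, 6-0 had the highest Il1rap, at 268.1, the highest Il1r1, at 27.8, and the highest hippocampus marker sum of all 51 hypothalamic libraries, at 416. Without litter 6 the Il1rap difference was 0.99 (adjusted p = 0.0235).

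**Figure D4:**
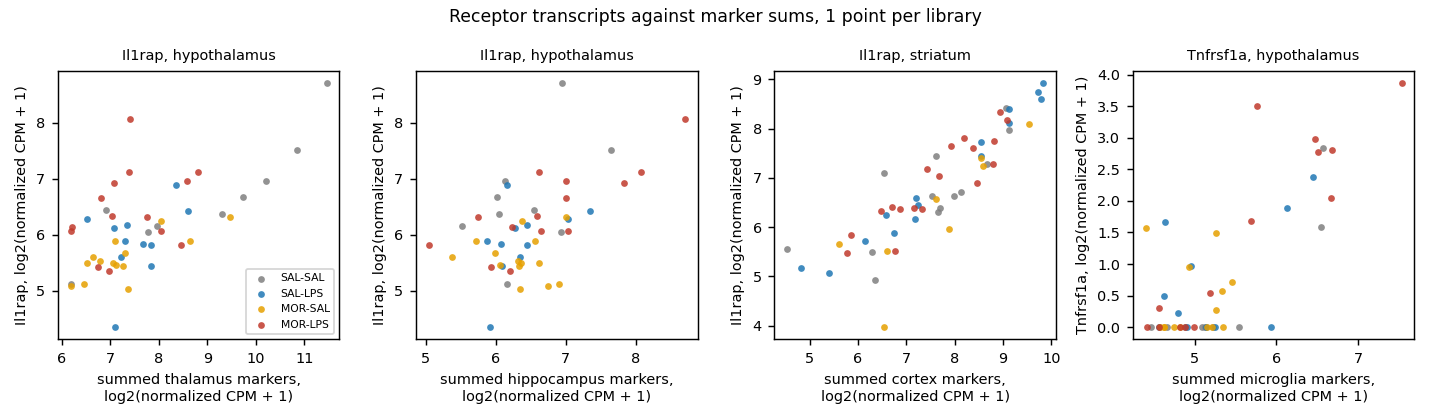
Receptor level against the summed level of a marker list, both as log2(normalized CPM + 1), with 1 point per library coloured by condition and low-depth libraries left out: hypothalamic Il1rap against thalamus and hippocampus markers, striatal Il1rap against cortex markers, and hypothalamic Tnfrsf1a against microglia markers. Il1rap rises with the thalamus sum in the hypothalamus (r = 0.62 with condition means removed) and with the cortex sum in the striatum (r = 0.896).

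Il1rap correlated with marker sums in other regions as well. With condition means removed, its log2 level correlated with the cortex marker sum in the striatum (Pearson's r = 0.896 over 54 libraries), with the astrocyte and cortex sums in the PFC (r = 0.813 and 0.72 over 45 libraries) and with the hippocampus sum in the hippocampus (r = 0.587 over 53 libraries). Il1r1 correlated with the hippocampus sum in the hippocampus (r = 0.752) and the hypothalamus (r = 0.694 over 48 libraries). These are descriptions over libraries that share depth and scaling. Striatal Il1rap ranged from 14.6 to 487.3 normalized CPM, the widest range of the gene in any region, and the 3 libraries with the highest cortex sums, 4-0, 3-3 and 1-2, were also the 3 highest for Il1rap.

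Tnfrsf1a had few reads in every region and was called higher after LPS in the hippocampus and striatum. No read was counted in 25 of 48 PFC, 22 of 55 hippocampal, 19 of 54 striatal and 27 of 51 hypothalamic libraries. In the striatum, MOR-SAL libraries ranged from 0 to 0.221 normalized CPM with 6 of 8 at 0, and MOR-LPS libraries from 0 to 7.48 with a median of 0.426 and 4 of 18 at 0. In all, 9 of the 18 lay above the whole MOR-SAL range, and the log2 difference was 4.49 ± 1.27 (SE, adjusted p = 0.0465). The call held in 3 of 10 fits that left out a litter (13, 17 or 6), with an adjusted p of 0.0542 to 0.199 in the others, the largest without litter 15, and with litter as a block the difference was 3.12 (adjusted p = 0.408). Averaged over both exposures, the LPS difference was 3.02 ± 0.76 in the striatum (adjusted p = 0.0210, 26 of 33 libraries above the median of the 21 saline-injected ones) and 2.58 ± 0.69 in the hippocampus (adjusted p = 0.0245, 19 of 30 libraries above the median of 25). Each call held in 16 of 18 fits without a litter; it was lost in the striatum without litter 15 (adjusted p = 0.0759) or 5 (0.0507), and in the hippocampus without litter 15 (0.0604) or 3 (0.0625). With litter as a block neither was called, at 2.56 in the striatum (adjusted p = 0.194) and 2.79 in the hippocampus (adjusted p = 0.165). Averaged this way, 1 member was called in the striatum (1.65% of all genes), 2 in the hippocampus (3.82%), and none in the PFC (1.77%) or hypothalamus (4.43%).

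In the PFC and hypothalamus the largest Tnfrsf1a values were also in MOR-LPS libraries. PFC values reached 0.978 in MOR-SAL and 7.95 in MOR-LPS, with a log2 difference of 4.47 ± 1.16 that was not called (adjusted p = 0.0859), and hypothalamic values reached 1.98 and 13.6, with 2.39 ± 0.96 (adjusted p = 0.144). The hypothalamic library with the highest Tnfrsf1a level, 16-4, also had the highest microglia marker sum (184) and the highest astrocyte sum of the region. Across the hypothalamus Tnfrsf1a correlated with the microglia sum (r = 0.763 over 48 libraries) and the oligodendrocyte sum (r = 0.753). In the striatum the microglia sum ranged from 14.3 to 44.8 in MOR-SAL and from 18.4 to 276 in MOR-LPS, and with microglial and endothelial sums as covariates the Tnfrsf1a difference there was 2.86 (adjusted p = 0.204). In the hippocampus of saline-reared mice the microglia sum ranged from 16.7 to 40.9 without and from 4.52 to 41.9 with LPS, and the Tnfrsf1a difference under the same covariates was 3.48 (adjusted p = 0.0410). The highest microglia sum of all hippocampal libraries, 298, belonged to a morphine-reared one. The highest hippocampal Tnfrsf1a level, 8.94, was that of MOR-LPS library 15-3, and without litter 15 the averaged hippocampal call was lost, as given above.

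Tnfrsf1b, the other TNF receptor, was not called in any of the within-region contrasts. Striatal libraries averaged 1.39 ± 1.59 normalized CPM in MOR-SAL (SD, n = 8) and 4.74 ± 3.68 in MOR-LPS (n = 18), where 16 of 18 lay above the MOR-SAL median, and the log2 difference of 1.47 ± 0.54 had an adjusted p of 0.173. PFC libraries averaged 1.04 ± 1.43 and 4.97 ± 6.54, a difference of 2.48 ± 1.09 (adjusted p = 0.345). Hypothalamic means went the other way, from 4.99 ± 2.17 in MOR-SAL to 3.05 ± 2.46 in MOR-LPS, without an unadjusted p under 0.05.

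Ifngr2, the signalling chain of the interferon-gamma receptor, was the only member called lower after LPS. In the hippocampus SAL-SAL libraries ranged from 17.0 to 42.6 normalized CPM (median 23.4) and SAL-LPS libraries from 9.87 to 23.4 (median 15.7), so all 14 SAL-LPS libraries lay below the SAL-SAL median and 9 below its lowest value. MOR-SAL libraries ranged from 18.4 to 43.2 (median 24.6) and MOR-LPS from 0 to 32.7 (median 21.2). The highest MOR-SAL value and the 0 came from the low-depth libraries 13-1 (11 counts) and 12-2, and without these the ranges were 18.4 to 42.8 and 12.8 to 32.7. The difference averaged over exposures was -0.55 ± 0.16 (SE, adjusted p = 0.0387), that in saline-reared mice -0.68 ± 0.23 (adjusted p = 0.0813). The averaged call held in 9 of 18 fits that left out a litter, where the difference stayed between -0.60 and -0.48, and its adjusted p was largest, at 0.0856, without litter 1. With litter as a block it was -0.56 (adjusted p = 0.195). With the thalamus sum as a covariate it was -0.42 (adjusted p = 0.124). Ifngr1, the ligand-binding chain, had the other sign in morphine-reared mice, with means of 2.93 ± 3.61 in MOR-SAL and 6.84 ± 5.30 in MOR-LPS and 15 of 16 MOR-LPS libraries above the MOR-SAL median, but its log2 difference of 1.19 ± 0.45 (SE) was not called (adjusted p = 0.181).

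The type I interferon receptor genes did not pass an unadjusted p of 0.05 in any of the 6 contrasts in any region. Ifnar1 differences lay between -0.13 and 0.46 on the log2 scale and Ifnar2 differences between -0.32 and 0.64. The narrowest interval was that of Ifnar1 in the striatum averaged over exposures, from -0.20 to 0.15, so a change of that size or less is what these libraries allow there. Striatal Ifnar1 averaged 30.4 to 32.2 normalized CPM in the 4 conditions. In the PFC, where single libraries spread more, the Ifnar2 interval for the LPS response of saline-reared mice ran from -1.54 to 1.81.

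Within regions, no contrast of Il6st or Il1r1 was called. Hippocampal Il6st averaged 25.2 ± 2.54 normalized CPM in MOR-SAL and 32.9 ± 9.64 in MOR-LPS, a log2 difference of 0.39 ± 0.16 (adjusted p = 0.231), and SAL-LPS averaged 25.3 ± 8.02, a difference of 0.41 ± 0.15 from MOR-LPS (adjusted p = 0.127, and 0.0444 without low-depth libraries). In the PFC, Il1r1 had a mean of 1.37 ± 1.13 in SAL-SAL and 9.57 ± 19.8 in SAL-LPS, and library 1-4 at 65.6 carried most of that mean. The log2 difference of 2.61 ± 0.87 (adjusted p = 0.179) was 1.29 without litter 1. After LPS, no member was called between morphine-reared and saline-reared mice in any region with all libraries (the edgeR test called 0 of 40, DESeq2 0, and 5 had an unadjusted p under 0.05), beside 0.0046% of all genes called in the PFC, 2.73% in the hippocampus, 0% in the striatum and 1.03% in the hypothalamus. The smallest adjusted p was that of hypothalamic Il6ra, 2.68 ± 0.75 (adjusted p = 0.0785).

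The genes that act with these receptors were described by a list of 56: 12 ligands, 11 related receptors, 22 adaptors and kinases, 9 feedback inhibitors and 2 shedding proteases, of which 45 to 51 could be tested in a region. In saline-reared mice LPS changed 1 of 45 in the hippocampus (2.55% of all genes), Stat3, the transcription factor downstream of Il6st, from 40.3 ± 12.1 to 82.2 ± 59.9 normalized CPM (log2 1.02, adjusted p = 0.0268), and none in the other 3 regions. In morphine-reared mice 5 of 50 were called in the striatum (1.39% of all genes), 3 higher and 2 lower, and 5 of 51 in the hypothalamus (6.27% of all genes), all higher, with none in the PFC or hippocampus. List genes, here and below, were called by the edgeR fit, which takes libraries of a litter as independent. No fit with litter as a block, or with a litter left out, is given for them.

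Striatal Osmr, the receptor for oncostatin M that pairs with Il6st, rose in morphine-reared mice from 0.0968 ± 0.130 to 3.44 ± 5.67 normalized CPM (log2 5.00 ± 0.98, adjusted p = 0.00808), with all 18 MOR-LPS libraries above the MOR-SAL median. Socs3, a feedback inhibitor of Il6st signalling, rose from 0.0575 ± 0.127 to 0.913 ± 1.02 (log2 3.93, adjusted p = 0.0481). Socs2, a cytokine and growth hormone feedback inhibitor, fell from 42.1 ± 11.8 to 22.1 ± 7.20 (log2 -0.95 ± 0.19, adjusted p = 0.00576), with all 18 libraries below the MOR-SAL median, and Il11ra1, the interleukin-11 receptor, fell from 21.4 ± 8.68 to 13.5 ± 3.17 (log2 -0.67, adjusted p = 0.0269). The fifth gene was the ligand Tnf, at 0 in all 8 MOR-SAL libraries and above 0 in 11 of 18 MOR-LPS libraries; it was named after its values were seen.

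Hypothalamic MOR-LPS libraries had more Nfkbia, the inhibitor of NF-kB, at 25.6 ± 17.6 against 8.96 ± 3.11 in MOR-SAL (log2 1.54 ± 0.30, adjusted p = 0.00191), and its interaction was 1.55 ± 0.46 (adjusted p = 0.0364). Lifr, the leukaemia inhibitory factor receptor that signals with Il6st, rose from 39.9 ± 14.9 to 72.05 ± 29.5 (log2 0.87, adjusted p = 0.0247), and Zfp36, which destabilises cytokine transcripts, from 0.363 ± 0.464 to 2.83 ± 3.50 (log2 2.96, adjusted p = 0.0265). The ligand Lif was at 0 in all MOR-SAL and SAL-LPS libraries and above 0 in 4 of 14 MOR-LPS and 4 of 11 SAL-SAL libraries. Averaged over exposures, 3 of 45 list genes were called in the hippocampus (3.82% of all genes), 3 of 50 in the striatum (1.65%), 6 of 51 in the hypothalamus (4.43%) and none in the PFC (1.77%). Stat3 was called higher after LPS in the hippocampus (log2 0.77, adjusted p = 0.00801), striatum (0.54, adjusted p = 0.0434) and hypothalamus (0.50, adjusted p = 0.0203), and in the hippocampus also Jak2, a kinase bound to the interferon-gamma receptor (0.51, adjusted p = 0.0161) and Usp18, an inhibitor of type I interferon signalling (3.24 ± 1.10, adjusted p = 0.021), which was above 0 in only 5 of 30 LPS and 3 of 25 saline-injected libraries. Averaged Osmr was called higher in the striatum (3.42, adjusted p = 0.00111) and the hypothalamus (2.69, adjusted p = 0.0118), and averaged Socs2 lower in the striatum (-0.78, adjusted p = 1.54e-04). In the hypothalamus Lifr was called as well, and so was Il1rn, the interleukin-1 receptor antagonist, from 3 of 26 LPS libraries above 0 and none of 25 saline-injected ones. The astrocyte, oligodendrocyte and microglia marker sums given above moved with the hypothalamic genes, and with the striatal ones 3 of 5 tested astrocyte markers and 1 of 7 tested microglial markers were called higher. Their part in these results was not tested.

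Few list genes were called in the contrasts with exposure. After LPS, 3 of 45 differed between morphine-reared and saline-reared mice in the hippocampus (2.73% of all genes). Tab2, an adaptor of the kinase Tak1, was lower at 51.3 ± 9.29 normalized CPM in MOR-LPS against 74.9 ± 34.1 in SAL-LPS (log2 -0.53 ± 0.15, adjusted p = 0.0383). The others rest on few reads: Sigirr, an inhibitory receptor of the interleukin-1 family, was at 0 in all 16 MOR-LPS libraries and above 0 in 4 of 14 SAL-LPS libraries, and the ligand Lta was above 0 in 4 of 16 MOR-LPS libraries and none of 14. In the hypothalamus 1 of 51 was called after LPS (1.03% of all genes) and 1 at baseline (1.44%), Lif each time, and 2 for interaction (3.8%), Lif and Nfkbia. For interaction in the PFC 3 of 47 were called (1.78% of all genes): Osmr at 8.33 ± 2.00 (adjusted p = 0.0317), and Il1rl1, the interleukin-33 receptor, and Usp18, both at 0 in all 12 MOR-SAL libraries and above 0 in 3 of 16 MOR-LPS libraries. An interaction rests on the SAL-SAL and SAL-LPS libraries as well, and the levels of these 3 genes there are not given here.

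Between regions, the LPS response of the members was not called different in any of 60 tests in a fit over all 208 libraries (of all genes 1.19% were called between PFC and hippocampus, 0.621% between PFC and striatum, 1.48% between PFC and hypothalamus, 0.731% between hippocampus and striatum, 1.59% between hippocampus and hypothalamus and 0.959% between striatum and hypothalamus), and 9 had an unadjusted p under 0.05. The smallest adjusted p was that of Il1r1 between PFC and hippocampus, 1.61 ± 0.57 (adjusted p = 0.193), followed by Tnfrsf1b between PFC and hypothalamus, 2.12 ± 0.79 (adjusted p = 0.208). These tests average over both exposures. Among morphine-reared mice alone the LPS response of Il6ra was lower in the hippocampus than in the hypothalamus by a log2 difference of -4.13 (adjusted p = 0.00296), and among saline-reared mice alone the difference was 1.48 (adjusted p = 0.854). Among saline-reared mice the response of Il1r1 was higher in the PFC than in the hypothalamus by 4.13 (adjusted p = 0.0184), a call that was lost without PFC library 1-4 (2.79, adjusted p = 0.134). Among morphine-reared mice that difference was of the other sign, -1.93 (adjusted p = 0.14).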

How the data were processed

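The authors sequenced nuclear RNA from NeuN-sorted nuclei (modified Smart-seq3), trimmed reads with Trim Galore 0.6.7, aligned them with STAR 2.7.10a to mm10 and counted them per gene with STAR on GENCODE annotation, checked with HTSeq 0.12.4. They deposited raw counts per gene for each region, used here for all tests, and CPM values, which are those counts scaled to the library total without mitochondrial genes. No molecular identifiers enter the deposited values, so floors cover counting error only. The strand setting is not given in the sources used here. Positions are from GENCODE M21.

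Groups came from the sample labels. Counts were tested per region with edgeR 4.0.16 (R 4.3.3, quasi-likelihood, TMM) with condition and sex in the model, for genes with a total count over 10, and p-values were Benjamini-Hochberg adjusted over all of them; DESeq2 1.42.0 and limma 3.58.1 were alternatives. Region pairs used the SAL-SAL libraries of all regions, and LPS responses between regions used all 208. Scripts were tested on simulated data. Animals gave libraries in several regions: the median correlation of same-animal deviations was 0.0022 to 0.099 over the region pairs.

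The members, pathway and marker lists were chosen with earlier results of these data known. All members' levels were described. Their tests were chosen for printing at an unadjusted p under 0.05, though not every such test is given. Up to 4 called list genes per contrast and region were named.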

Additional observations from a re-analysis of the deposited data

Results flagged for a closer look

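In groups of 4 to 10 libraries, 8 of the 30 groups of a member gene held 1 library far from the rest by Dixon's criterion, which chance alone meets in about 1 group in 20 where values are normally distributed. Several of these groups hold many zeros (Tnfrsf1a was at 0 in 7 of 10 PFC SAL-SAL libraries, and Tnfrsf1b in 5 of 10 PFC SAL-LPS libraries), so the count is not read against chance. The 8 were Il1r1 in PFC SAL-LPS (library 1-4, 65.6 normalized CPM), Il6ra in striatal MOR-SAL (17-2, 8.50), Il6st in striatal MOR-SAL (14-1, the lowest at 24.3), Tnfrsf1a in PFC SAL-SAL (9-4, 0.977) and PFC SAL-LPS (4-4, 1.86), Tnfrsf1b in PFC SAL-SAL (9-4, 8.41) and PFC SAL-LPS (10-0, 15.8), and Ifnar2 in PFC SAL-SAL (9-0, 15.1). Library 9-4 also had the highest PFC sums of microglia (299), astrocyte (1113) and oligodendrocyte markers (4775).

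The LPS response differed between exposures in the hypothalamus by the interaction test for Il1rap (log2 1.93, adjusted p = 0.00534 by edgeR) and Il6ra (log2 5.54, adjusted p = 0.00534 by edgeR). The astrocyte and thalamus marker sums moved with these groups, and neither interaction was called with the astrocyte sum as a covariate or in limma-voom with litters correlated.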

How the results depend on the processing

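Members called for the LPS response in saline-reared mice (1) numbered 0 among females or males alone, with edgeR's own filter or no filter, in limma on log2(CPM + 0.1) or log2(CPM + 1), in limma-voom with litters correlated, with litter as a block and with only the 2 groups fitted, and 2 without low-depth libraries. For morphine-reared mice (3) they numbered 0 with the astrocyte covariate, 1 among females and 2 with litter as a block. Other changes between 3 and 2, for this response or the averaged one, are not listed by fit. Averaged over exposures (3), they numbered 1 with the astrocyte or the microglia and endothelium covariates, edgeR's filter, limma with 0.1 and limma-voom, and 0 among females or males, in limma with 1 and with the litter block. For morphine at baseline (2), they numbered 0 with the astrocyte or thalamus covariate, library size scaling, limma, limma-voom and among males, and 1 among females, with edgeR's filter, the microglia and endothelium covariates, only 2 groups, or without libraries against their labelled sex. After LPS (0) there was 1 without low-depth libraries, and for interaction (2) 0 with the astrocyte covariate, limma, limma-voom and among males, and 1 with the thalamus covariate. Leaving out a litter gave 0 to 1, 2 to 3, 0 to 3, 0 to 2, 0 and 2 in that order. The cause of these changes was not tested.

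Of 60 region pair tests 20 were called, 13 in limma with 0.1 and 11 with the animal as replicate block. Calls over all genes fell in the same fits. Between PFC and hypothalamus they numbered 14950 of 27637 in the main fit, 13000 of 27623 in limma and 10444 of 27637 with the block. For LPS responses between regions the replicate block gave 0, as the main fit did, and 1 was called within each exposure alone, the saline one not without PFC library 1-4. Over all genes the block called 21 of 32841 between PFC and hypothalamus and 77 between hippocampus and hypothalamus. The saline-reared libraries alone gave 379 of 30348 for the first pair, and the morphine-reared ones 966 of 31183 for the other.

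Signs reversed for Tnfrsf1b after LPS in striatal males (-0.032), Tnfrsf1a interaction in striatal males (-0.39), hypothalamic Il1r1 with the astrocyte covariate (-0.27), Il1r1 between PFC and striatum in the LPS response of morphine-reared mice (-0.71), Il6ra between hippocampus and hypothalamus in that of saline-reared mice (1.48, or 1.49 without PFC library 1-4), Il1r1 between PFC and striatum (MOR-SAL 0.27, SAL-LPS 1.10) or hypothalamus (1.397, 2.82, or 1.30 without that library), and Tnfrsf1a between hippocampus and hypothalamus (0.54, 0.0075). Of 1769 alternatives to the member tests with an unadjusted p under 0.05, 1546 kept side and sign, 180 no longer passed the threshold, 30 newly passed it and 13 reversed. Covariates for thalamus and astrocyte markers, the Y-linked rule and the fits without that library were chosen after seeing the data. Low counts of Tnfrsf1a, Tnfrsf1b and hypothalamic Il6ra limit those results.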

Other observations

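Genes whose levels went most closely with a receptor gene were searched over 200 libraries, with region means removed. The search covered the 13008 genes whose mean reached 1 normalized CPM in each region. For Il1rap the closest were Mast4 (Pearson's r = 0.821), Cdk6 (0.735) and Clmn (0.728), and for Il1r1 Ahcyl2 (0.587), Ppfia2 (0.574) and Dhx33 (0.567). For Il6ra they were Cecr2 (0.588), Spns2 (0.541) and Ssfa2 (0.52), and for Il6st the first was Kbtbd2 (0.6). For the interferon receptor genes the first were Hadha for Ifnar1 (0.553), Fdx1 for Ifngr2 (0.511), Tppp3 for Ifngr1 (0.473) and Aste1 for Ifnar2 (0.437). Tnfrsf1a and Tnfrsf1b were too low to be searched. Among the members themselves, Il1r1 and Il1rap went together in the hippocampus (r = 0.795) and Ifngr1 and Ifngr2 in the PFC (r = 0.686) and hypothalamus (r = 0.582). These libraries share depth and scaling, and the values are descriptions.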
